A study of Mus musculus with 12 samples.

Results

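The S100 proteins and annexins analysed here belong to families of mostly calcium-binding proteins, some of which myeloid cells carry in large amounts. Of their genes 9 were followed: S100a4, S100a6, S100a8, S100a9, S100a10, S100a11, Anxa1, Anxa2 and Anxa3. They were taken by symbol from the 35303 gene symbols of the deposited count table, and all 9 passed the filter on low counts that left 17676 symbols for testing. The cells were myeloid-derived suppressor cells (MDSCs), immature immunosuppressive myeloid cells, grown for 3 days from bone marrow of wild-type female C57BL/6 mice aged 6 to 10 weeks with IL-6 and GM-CSF, then purified as CD11b+Gr1+ cells. The MDSC group held unmodified cells, the MDSC-NP-Blk group held azide-labelled cells with blank PLGA nanoparticles clicked onto their surface, and the CITED group held cells given the same particles loaded with rapamycin, an mTOR inhibitor. All 3 groups stayed 24 h in medium with IL-6 before RNA was taken, and each had 4 libraries labelled as biological replicates. Whether unmodified cells also took up the azide sugar, and whether animals were pooled, was not stated in the sources used here, so azide labelling and blank particles cannot be told apart in a contrast with MDSC.

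S100 proteins are small EF-hand proteins, and annexins bind phospholipid membranes when calcium rises. S100A8 and S100A9 pair as calprotectin, an abundant cytosolic protein of neutrophils and monocytes that acts as an alarmin through TLR4 once released and is a known marker of MDSCs. S100A10 joins annexin A2 in a membrane complex that binds plasminogen, and S100A11 is a known partner of annexin A1, the glucocorticoid-induced protein that signals through formyl peptide receptors.

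Library depth ran from 20604809 to 37855478 counts. The 9 genes together took 2.71 to 3.04% of the counts of MDSC libraries, 3.08 to 3.32% in MDSC-NP-Blk, with 2.41 to 2.74% in CITED. S100a8 and S100a9 made up most of it, with 2.51% ± 0.128 in MDSC, 2.75% ± 0.0901 in MDSC-NP-Blk, with 2.08% ± 0.137 in CITED (SD, n = 4). The other 7 genes took 0.366% ± 0.00796, 0.433% ± 0.0189 and 0.440% ± 0.0177 in the same order of groups. The granulocytic markers of the cells were abundant, with all 12 listed genes detected in every group, whereas the tissue label of the samples, CNS, was not borne out by neural markers: Gfap, Aqp4, Mog, Snap25, Syt1 and Rbfox3 held fewer than 2 counts over the 12 libraries. Long transcripts were relatively more abundant in MDSC libraries. The Spearman correlation of centred log2 expression with transcript length was 0.218 to 0.346 in MDSC libraries, -0.422 to 0.0921 in MDSC-NP-Blk, with -0.341 to -0.187 in CITED, over 10543 genes. This bears on S100a8, S100a4, S100a9 and S100a6, whose transcripts of 492, 503, 572 and 780 bases are among the shortest measured, so length-corrected values stand beside the differences of the 9 genes and the counts of the related lists.

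Of the 9 genes, 6 lie on chromosome 3 (GRCm39) in the S100 cluster. S100a4 (90511074 to 90513354, plus strand) and S100a6 (90520140 to 90535843, plus strand) are separated only by S100a5, and S100a8 (90567118 to 90578128, plus strand) and S100a9 (90599931 to 90603071, minus strand) are neighbours on opposite strands with 21802 bases between them. S100a11 (93414382 to 93435293) and S100a10 (93462213 to 93474510) form a separate group on the plus strand. Anxa1 lies on chromosome 19 (20350792 to 20368374, minus strand), Anxa2 on chromosome 9 (69360542 to 69399077, plus strand) and Anxa3 on chromosome 5 (96940544 to 96993828, plus strand). The promoters of the 4 neighbouring S100 genes are shown because S100a8 and S100a9 moved together while S100a4 and S100a6 moved in opposite directions. RefSeq sequences of GRCm38.p6 were used, from 250 bases before the start, and those that are shorter end where the canonical GENCODE transcript begins. Capitals mark matches, on either strand, to the C/EBP motif TTGCNNAA, the STAT motif TTCNNNGAA, the AP-1 motif TGANTCA or the TATA motif TATAAA. The stretches are chr3:90603520-90603769 for S100a4 and chr3:90612644-90612832 for S100a6 on the plus strand, chr3:90668821-90668977 for S100a8 on the plus strand and chr3:90695765-90695971 for S100a9 on the minus strand.
S100a4: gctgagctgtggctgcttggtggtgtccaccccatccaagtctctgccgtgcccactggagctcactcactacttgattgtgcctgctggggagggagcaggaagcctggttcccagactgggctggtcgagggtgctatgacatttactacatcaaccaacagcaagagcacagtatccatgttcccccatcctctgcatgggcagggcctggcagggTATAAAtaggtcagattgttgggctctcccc
S100a6: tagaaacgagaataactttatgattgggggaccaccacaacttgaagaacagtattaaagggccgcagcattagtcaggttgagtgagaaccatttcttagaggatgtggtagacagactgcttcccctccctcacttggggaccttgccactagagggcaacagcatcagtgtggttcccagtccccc
S100a8: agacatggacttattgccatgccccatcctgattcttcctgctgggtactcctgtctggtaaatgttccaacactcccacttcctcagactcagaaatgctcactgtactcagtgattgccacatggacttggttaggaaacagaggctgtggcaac
S100a9: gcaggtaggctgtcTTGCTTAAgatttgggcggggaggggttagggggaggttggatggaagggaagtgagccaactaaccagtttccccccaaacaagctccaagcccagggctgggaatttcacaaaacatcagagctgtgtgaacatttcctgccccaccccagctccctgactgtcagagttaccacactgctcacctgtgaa

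In the 250 bases before the start, S100a4 held TATAAA 31 to 26 bases upstream and S100a8 held it 30 to 25 bases upstream, in the latter case past the stretch shown. S100a9 held TTGCTTAA 236 to 229 bases upstream, and S100a6 held none of the 4 motifs. Of 32851 mouse promoters in the same table, 12.4% held TATAAA, 9.56% the C/EBP motif, 7.02% the STAT motif and 6.75% the AP-1 motif in this window. These matches describe the letters only.

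Levels were compared between genes per kilobase of the canonical transcript. In MDSC, S100a8 stood at 535816 ± 32391 normalized counts per kb and S100a9 at 494468 ± 32630, and these neighbours in the order overlapped in range. S100a6 (18011 ± 1108), Anxa2 (15532 ± 480) and Anxa1 (11491 ± 337) followed, then S100a11 (6321 ± 334), Anxa3 (2889 ± 50.1), S100a4 (2413 ± 252) and S100a10 (741 ± 58.5). In CITED, S100a6 reached 39248 ± 3392 normalized counts per kb and S100a11 reached 12760 ± 1030, the latter overlapping Anxa1 at 12608 ± 220 (SD, n = 4). This order holds for canonical transcripts only. Between the longest and the shortest coding transcript, the MDSC level per kb ran from 10643 to 36777 for S100a6, 11798 to 35063 for Anxa2, 10207 to 14241 for Anxa1, 6321 to 32057 for S100a11, 2592 to 12748 for Anxa3 and 505 to 2974 for S100a10, so the places below S100a8 and S100a9 are not fixed.

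**Figure D1:**
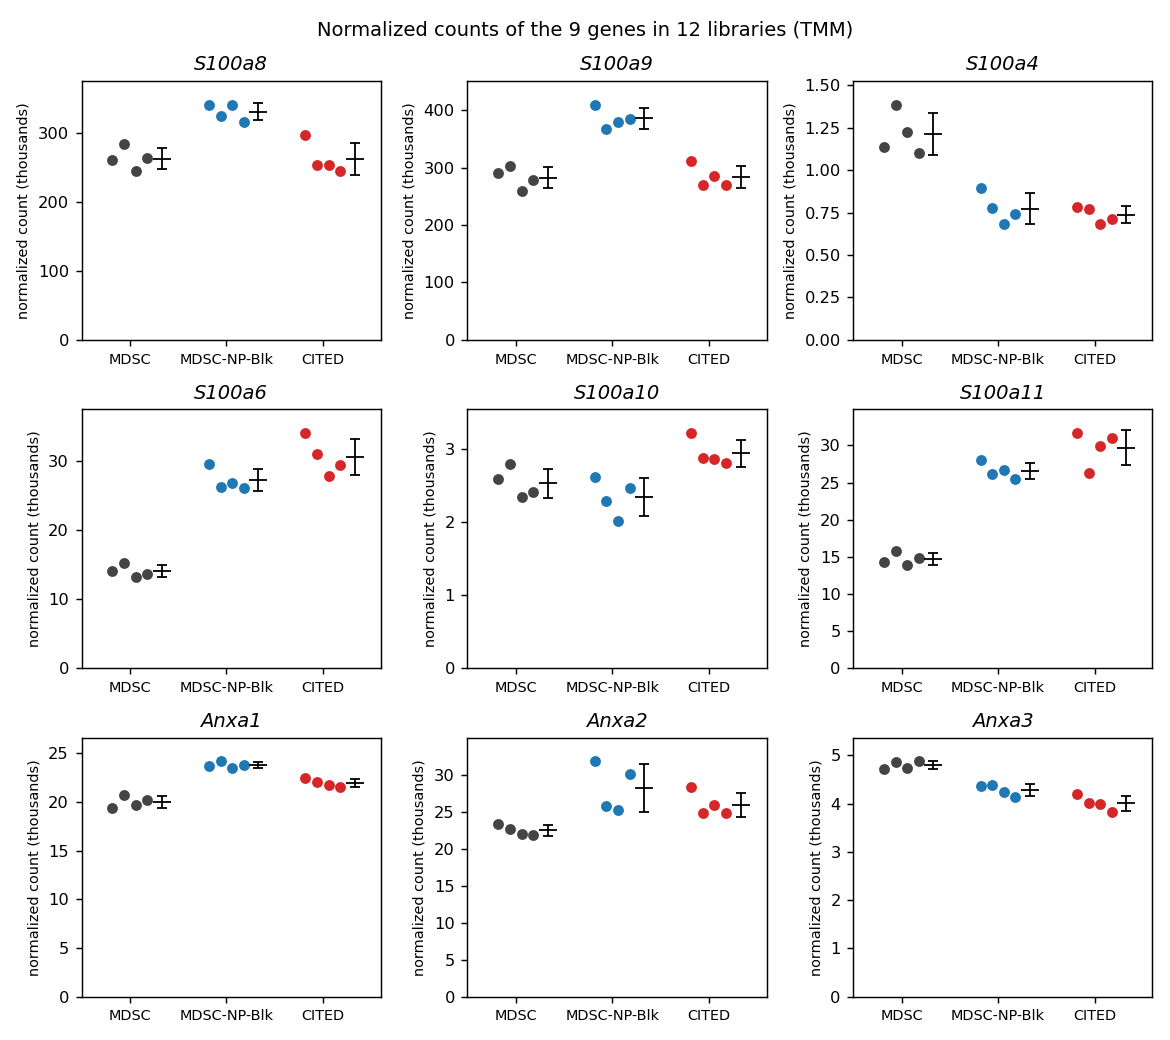
Normalized counts (TMM-scaled, linear y axis from 0) of the 9 genes in each of 12 libraries, by group. Points are libraries and the bar beside them is the mean with SD (n = 4); S100a6 and S100a11 are higher in all nanoparticle-carrying libraries than in MDSC, S100a4 and Anxa3 are lower, and S100a8 and S100a9 are highest in MDSC-NP-Blk.

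S100a8 and S100a9, the calprotectin subunits, were highest in cells carrying blank nanoparticles and lower again in CITED. S100a8 held 260836, 284366, 245626 and 263659 normalized counts in the MDSC libraries, 342038, 325942, 340830 and 316423 in MDSC-NP-Blk, with 297480, 253727, 254019 and 245807 in CITED. Every MDSC-NP-Blk library lay above every library of the other groups, while MDSC and CITED overlapped. S100a8 fell by 20.7% in CITED against MDSC-NP-Blk (log2 fold change -0.33, SE 0.0471, adjusted p = 1e-06), and with the length correction the log2 difference was -0.29 (adjusted p = 2.65e-06). Tests here and below are edgeR's quasi-likelihood test with Benjamini-Hochberg adjustment over all symbols.

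For S100a9, the libraries held 290779, 302987, 259268 and 278309 normalized counts in MDSC, 410074, 367790, 380051 and 385606 in MDSC-NP-Blk, with 311341, 270590, 284851 and 270305 in CITED. The order of the groups was that of S100a8, again with a gap between MDSC-NP-Blk and the rest. S100a9 fell by 26.3% in CITED against MDSC-NP-Blk (log2 fold change -0.44, SE 0.0453, adjusted p = 1.79e-09), and the length-corrected value was -0.40 (adjusted p = 6.28e-11). Leaving out any library kept this difference between -0.49 and -0.41 for S100a9, and between -0.40 and -0.30 for S100a8.

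Against unmodified cells, the calprotectin genes gave values that turned on transcript length. In MDSC-NP-Blk, S100a8 was 25.7% higher than in MDSC (log2 fold change 0.33, SE 0.0471, adjusted p = 4.96e-07) and S100a9 was 36.4% higher (0.45, SE 0.0453, adjusted p = 4.28e-10), but with the length correction S100a8 gave 0.024 (adjusted p = 0.733) and S100a9 gave 0.15 (adjusted p = 0.00186). In CITED, the log2 differences from MDSC were -0.0047 for S100a8 (95% CI -0.10 to 0.091, adjusted p = 0.961) and 0.0073 for S100a9 (-0.085 to 0.099, adjusted p = 0.932), whereas the length-corrected values were -0.27 (adjusted p = 3.61e-06) and -0.26 (adjusted p = 3.47e-07). With library totals alone as scaling, which moved the median of all genes by -0.27 in CITED and by -0.26 in MDSC-NP-Blk relative to MDSC, S100a8 and S100a9 in CITED fell by 0.28 and 0.27 on the log2 scale, and S100a8 in MDSC-NP-Blk gave 0.068 (adjusted p = 0.198). The lower level in CITED than in MDSC-NP-Blk is thus the difference that held for both genes under each of these settings.

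Granulocytic markers followed these genes in part. The summed normalized counts of the 12 markers ran from 526393 to 558771 in MDSC, between 780224 and 797104 in MDSC-NP-Blk, and between 607444 and 656666 in CITED, so the sum was highest in MDSC-NP-Blk, as calprotectin was, but higher in CITED than in MDSC, where calprotectin overlapped. In CITED against MDSC-NP-Blk 6 of the 12 fell and 3 rose, where 11.4% of all symbols fell and 10.5% rose. All 12 had a mean normalized count above 50, and of the 10556 symbols above that level 1899 fell and 1788 rose. The secondary granule genes Camp and Ngp fell by 1.09 and 1.05 on the log2 scale (adjusted p = 2.29e-16 and 5.68e-19), as did Ltf, Lcn2, Cd177 and Il1r2 by less, while the metalloproteinase genes Mmp8 and Mmp9 rose by 0.56 and 0.65 (adjusted p = 1.09e-13 and 2.33e-12) and the G-CSF receptor gene Csf3r by 0.20 (adjusted p = 0.00540). In CITED against MDSC 9 rose and 3 fell, beside 22.2% of all symbols in each direction. Of the 10556 symbols above a mean of 50, 3761 rose and 3409 fell there. In bulk RNA, fewer cells of a type and less RNA per cell cannot be told apart, and the part of these markers in the calprotectin result was not tested.

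S100a6 and S100a4, close neighbours in the genome, moved in opposite directions when cells carried nanoparticles. S100a6, also called calcyclin, held 14108, 15213, 13180 and 13693 normalized counts in MDSC, 29567, 26337, 26868 and 26191 in MDSC-NP-Blk, with 34095, 30995, 27886 and 29479 in CITED. All nanoparticle-carrying libraries exceeded all MDSC libraries, and the MDSC-NP-Blk and CITED ranges overlapped. S100a6 was 118% higher in CITED than in MDSC (log2 fold change 1.12, SE 0.0546, adjusted p = 1.81e-18) and 93.9% higher in MDSC-NP-Blk (0.96, SE 0.0544, adjusted p = 4.16e-16). The length-corrected values were 0.86 and 0.68, both lower but of the same sign (adjusted p = 1e-19 and 3.28e-16). Between CITED and MDSC-NP-Blk the difference was 0.17 (SE 0.0538, adjusted p = 0.0204), or 0.18 with the length correction (adjusted p = 7.81e-04), and the uncorrected value did not pass without MDSC-NP-Blk replicate 2 (0.15, adjusted p = 0.0611), MDSC-NP-Blk replicate 4 (0.15, adjusted p = 0.0523) or CITED replicate 1 (0.11, adjusted p = 0.139).

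S100a4, also known as metastasin, which binds non-muscle myosin, held 1140, 1387, 1225 and 1103 normalized counts in MDSC, 895, 776, 683 and 743 in MDSC-NP-Blk, with 786, 773, 685 and 710 in CITED. Here all nanoparticle-carrying libraries lay below all MDSC libraries. S100a4 fell by 39.2% in CITED against MDSC (log2 fold change -0.72, SE 0.0840, adjusted p = 5.96e-09) and fell by 36.3% in MDSC-NP-Blk (-0.65, SE 0.0834, adjusted p = 6.45e-08). The length correction widened both, to -0.98 and -0.96. CITED and MDSC-NP-Blk overlapped, with a difference of -0.067 (95% CI -0.24 to 0.11, adjusted p = 0.646), or -0.019 with the length correction (adjusted p = 0.919). Over all annotated transcripts of S100a4, 27.2% of 31-base words are shared with other annotated genes, Gm42674 sharing the most. Some reads of S100a4 could have been assigned to Gm42674, although that symbol held at most 10 counts in any library. Most macrophage markers were also lower in the nanoparticle groups, with a summed level of 8213 to 8757 normalized counts in MDSC, between 4361 and 5898 in MDSC-NP-Blk, and between 4972 and 5199 in CITED. In CITED against MDSC 5 of these 7 markers fell (Mrc1, C1qa, C1qb, C1qc and Mertk), where 22.2% of all symbols fell. Adgre1, which encodes F4/80, rose by 0.24 (adjusted p = 0.00234), and Timd4 was at 0 in both nanoparticle groups and near 0 in MDSC. Their part in the S100a4 result was not tested.

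**Figure D2:**
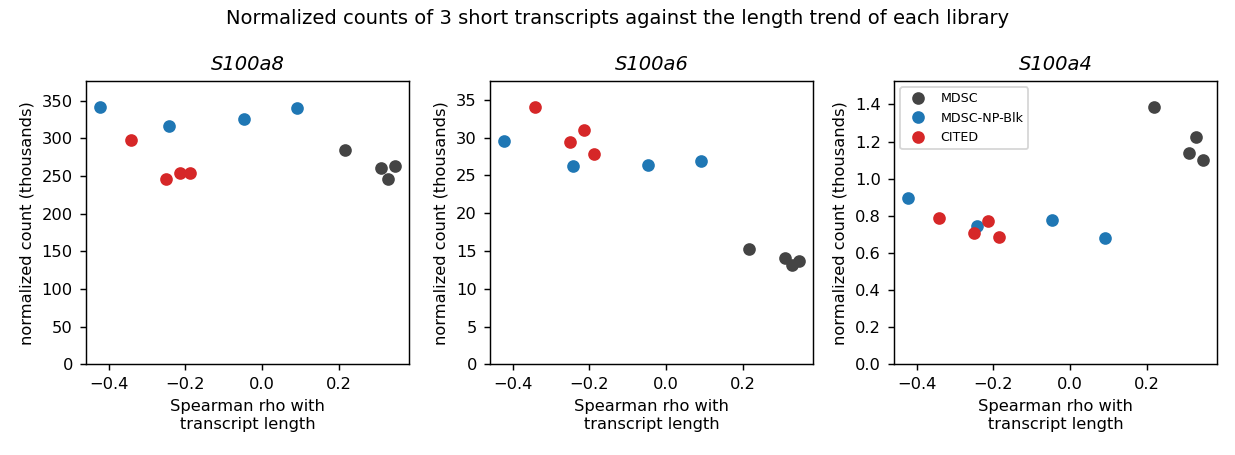
Normalized counts (linear y axis from 0) of S100a8, S100a6 and S100a4 against the Spearman correlation of centred expression with transcript length in each library (x axis). Points are the 12 libraries coloured by group; MDSC libraries lie to the right at 0.218 to 0.346, and S100a6 and S100a4 move in opposite directions across the same libraries.

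S100a11 rose in each nanoparticle group by an amount near that of S100a6, while S100a10 was higher in CITED alone and by less. S100a11, the annexin A1 partner, held 14322, 15733, 13941 and 14860 normalized counts in MDSC, 28013, 26109, 26672 and 25474 in MDSC-NP-Blk, with 31662, 26264, 29966 and 30932 in CITED. No nanoparticle-carrying library overlapped MDSC. S100a11 was 102% higher in CITED than in MDSC (log2 fold change 1.01, SE 0.0516, adjusted p = 6.48e-18) and 80.6% higher in MDSC-NP-Blk (0.85, SE 0.0515, adjusted p = 1.76e-15), and length-corrected values were 0.92 and 0.77 on the canonical transcript and 0.76 and 0.54 on the shortest coding one. Over all annotated transcripts of S100a11, 12.9% of 31-base words are shared with other annotated genes. Gm57150 shares the most and is not among the deposited symbols. CITED exceeded MDSC-NP-Blk by 0.16 (SE 0.0510, adjusted p = 0.0190), or 0.15 with the length correction (adjusted p = 0.00875), and the uncorrected call was lost without MDSC-NP-Blk replicate 4 (0.14, adjusted p = 0.0534), CITED replicate 1 (0.13, adjusted p = 0.0855) or CITED replicate 4 (0.14, adjusted p = 0.0748).

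S100a10, the annexin A2 partner, held 2587, 2791, 2343 and 2412 normalized counts in MDSC, 2614, 2286, 2016 and 2463 in MDSC-NP-Blk, with 3220, 2880, 2862 and 2810 in CITED. The CITED libraries lay above all others, and MDSC overlapped MDSC-NP-Blk. CITED exceeded MDSC-NP-Blk by 25.6% (log2 fold change 0.33, SE 0.0678, adjusted p = 3.30e-04), with 0.34 after the length correction. Against MDSC, S100a10 in CITED was 0.22 higher (SE 0.0674, adjusted p = 0.00833) and 0.25 higher with the length correction on the canonical transcript (adjusted p = 9.66e-04). The uncorrected difference did not pass without CITED replicate 1 (0.17, adjusted p = 0.0571) and turned to -0.058 with library totals alone and to -0.041 when the shortest coding transcript was assumed in the length correction. MDSC-NP-Blk differed from MDSC by -0.11 (95% CI -0.25 to 0.024, adjusted p = 0.201) and by -0.089 (adjusted p = 0.294) with the length correction on the canonical transcript. The difference passed at -0.17 (adjusted p = 0.0413) without MDSC-NP-Blk replicate 1, at -0.38 (adjusted p = 1.21e-05) with library totals alone and at -0.38 (adjusted p = 5.57e-08) with the shortest coding transcript.

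The 3 annexins moved by less. Anxa1, the ligand of formyl peptide receptors, held 19340, 20690, 19732 and 20218 normalized counts in MDSC, 23694, 24146, 23500 and 23822 in MDSC-NP-Blk, with 22412, 22066, 21727 and 21544 in CITED. The 3 groups did not overlap, with MDSC-NP-Blk highest and MDSC lowest. Anxa1 was 19.0% higher in MDSC-NP-Blk than in MDSC (log2 fold change 0.25, SE 0.0411, adjusted p = 5.11e-06) and 9.71% higher in CITED (0.13, SE 0.0411, adjusted p = 0.00723), but length-corrected values were 0.092 (adjusted p = 0.0551) and -0.054 (adjusted p = 0.271), and with library totals alone they were -0.011 and -0.14. From MDSC-NP-Blk to CITED it fell by 7.79% (-0.12, SE 0.0410, adjusted p = 0.0365), or -0.15 with the length correction (adjusted p = 0.00352). The uncorrected call was lost in turn without MDSC replicate 4, MDSC-NP-Blk replicates 2 or 4, or CITED replicates 2, 3 or 4 (adjusted p = 0.0506, 0.0934, 0.0649, 0.0651, 0.0861 and 0.0997), although the difference stayed between -0.13 and -0.11.

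Anxa2 held 23383, 22642, 22027 and 21849 normalized counts in MDSC, 31788, 25814, 25236 and 30093 in MDSC-NP-Blk, with 28289, 24836, 25874 and 24848 in CITED. MDSC was below the rest, and the wide MDSC-NP-Blk group overlapped CITED. Anxa2 was 25.6% higher in MDSC-NP-Blk than in MDSC (log2 fold change 0.33, SE 0.0567, adjusted p = 1.16e-05) and 15.5% higher in CITED (0.21, SE 0.0566, adjusted p = 0.00255). With the length correction the first stood at 0.13 (adjusted p = 0.0161) and the second turned to -0.017 (adjusted p = 0.791), and with library totals alone the second was -0.067 and the first 0.066 (adjusted p = 0.335). CITED differed from MDSC-NP-Blk by -0.12 (95% CI -0.24 to -0.0056, adjusted p = 0.137), which passed without MDSC-NP-Blk replicate 2 (-0.16, adjusted p = 0.0447), MDSC-NP-Blk replicate 3 (-0.17, adjusted p = 0.0171) or CITED replicate 1 (-0.16, adjusted p = 0.0433), and with the length correction (-0.14, adjusted p = 0.0102).

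Anxa3, an annexin of neutrophil granules, went the other way. It held 4710, 4860, 4733 and 4869 normalized counts in MDSC, 4371, 4373, 4235 and 4126 in MDSC-NP-Blk, with 4194, 4007, 3998 and 3822 in CITED. MDSC libraries were the highest, without overlap. Anxa3 fell by 16.5% in CITED against MDSC (log2 fold change -0.26, SE 0.0477, adjusted p = 2.25e-05) and fell by 10.8% in MDSC-NP-Blk (-0.16, SE 0.0476, adjusted p = 0.00538), with length-corrected values of -0.46 and -0.33. CITED differed from MDSC-NP-Blk by -0.095 (95% CI -0.19 to 0.0023, adjusted p = 0.173), and by -0.13 (adjusted p = 0.0350) with the length correction.

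**Figure D3:**
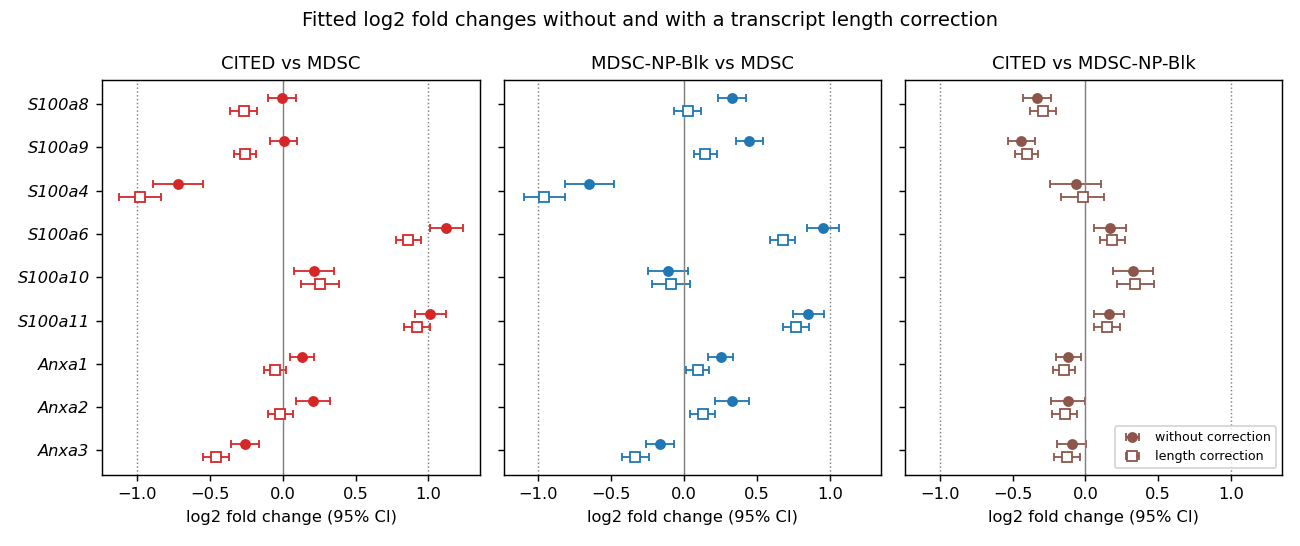
Fitted log2 fold changes (x axis) of the 9 genes in the 3 comparisons, with 95% confidence intervals, without (filled circles) and with (open squares) the transcript length correction. Dotted lines mark a log2 fold change of 1 in either direction; S100a6 and S100a11 stay above 0 and S100a4 and Anxa3 stay below 0 against MDSC in both fits, whereas in both contrasts with MDSC the corrected values of S100a8, S100a9, Anxa1 and Anxa2 lie lower than the uncorrected ones.

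When a call required an adjusted p under 0.05 together with a log2 difference of 1 or more in either direction, 2 of the 9 genes, S100a6 and S100a11, were called in CITED against MDSC, where 9.99% of all symbols tested were called. S100a11 sat at the fold threshold: without MDSC replicate 3, CITED replicate 1 or CITED replicate 4 only S100a6 was called, and with the length correction neither was (background 9.37%). In MDSC-NP-Blk against MDSC none of the 9 was called by edgeR or by DESeq2 (background 4.74%), although 8 had an unadjusted p below 0.05, and in CITED against MDSC-NP-Blk none was called by either tool (background 2.65%), with 7 at an unadjusted p below 0.05. By adjusted p alone, 5 of 9 were higher and 2 lower in CITED against MDSC, 6 higher and 2 lower in MDSC-NP-Blk against MDSC, and 3 higher and 3 lower in CITED against MDSC-NP-Blk. The share of all symbols at that threshold was 44.5%, 38.6% and 22%, but these include symbols with low counts. All 9 genes had a mean normalized count above 50. Of the 10556 symbols above that level, 3761 were higher and 3409 lower in CITED against MDSC. These numbers were 3393 and 2982 in MDSC-NP-Blk against MDSC, and 1788 and 1899 in CITED against MDSC-NP-Blk. With the length correction 3 of the 9 were higher and 4 lower in CITED against MDSC (43.9% of all symbols, 23.6% higher and 20.3% lower). In MDSC-NP-Blk against MDSC 4 were higher and 2 lower (37.7%, 19.9% and 17.8%), and in CITED against MDSC-NP-Blk 3 and 5 (24%, 13.2% and 10.8%). None was called in the latter 2 contrasts (4.09% and 2.61% of all symbols). Both contrasts with MDSC share the same MDSC libraries. In CITED against MDSC-NP-Blk the count fell from 6 to 3 without MDSC-NP-Blk replicate 4. The median log2 fold change of the 9 genes was 0.13, 0.33 and -0.10 in the 3 comparisons, beside -0.05, -0.03 and 0 over all symbols tested. Libraries of the groups compared did not overlap for 7, 8 and 4 of the 9 genes, against 42.5%, 35.6% and 21.2% of all symbols, those with low counts included.

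The ratio of partner genes within a library does not depend on library scaling. S100a8 counts were 0.933 ± 0.0241 of S100a9 counts in MDSC, 0.859 ± 0.0377 in MDSC-NP-Blk, with 0.924 ± 0.0285 in CITED (SD, n = 4). The ratio was lower in MDSC-NP-Blk than in MDSC in all libraries (log2 difference -0.12, exact two-sided permutation p = 0.0286, adjusted over 9 tests 0.0429). This is the smallest p that 4 against 4 libraries can give. The groups were separated only narrowly, with 0.89703 in MDSC replicate 1 and 0.89680 in MDSC-NP-Blk replicate 3. CITED overlapped MDSC-NP-Blk (0.10, exact permutation p = 0.0571, adjusted 0.0735) and MDSC (-0.01, exact permutation p = 0.743, adjusted 0.83).

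S100a10 counts were 0.113 ± 0.00733 of Anxa2 counts in MDSC, 0.0831 ± 0.00376 in MDSC-NP-Blk, with 0.113 ± 0.00220 in CITED (SD, n = 4). Every MDSC-NP-Blk library lay below the other groups, by -0.44 against MDSC and with CITED 0.45 above it on the log2 scale (each exact permutation p = 0.0286, adjusted 0.0429). CITED and MDSC overlapped (0.01, exact permutation p = 0.83, adjusted 0.83). With the length correction on canonical transcripts this last difference was 0.27 (exact permutation p = 0.0286, adjusted 0.0429), but with the shortest coding transcripts it was -0.021 (adjusted 0.743). The difference of MDSC-NP-Blk from MDSC was -0.22 with canonical and -0.51 with the shortest coding transcripts.

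S100a11 counts were 0.736 ± 0.0223 of Anxa1 counts in MDSC, 1.12 ± 0.0521 in MDSC-NP-Blk, with 1.35 ± 0.112 in CITED (SD, n = 4). The 3 groups did not overlap, and the ratio was 1.84-fold higher in CITED and 1.52-fold higher in MDSC-NP-Blk than in MDSC (each exact permutation p = 0.0286, adjusted 0.0429). CITED was 1.21-fold above MDSC-NP-Blk (exact permutation p = 0.0286, adjusted 0.0429), and after the length correction the libraries of these groups overlapped (exact permutation p = 0.0571, adjusted 0.0643).

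**Figure D4:**
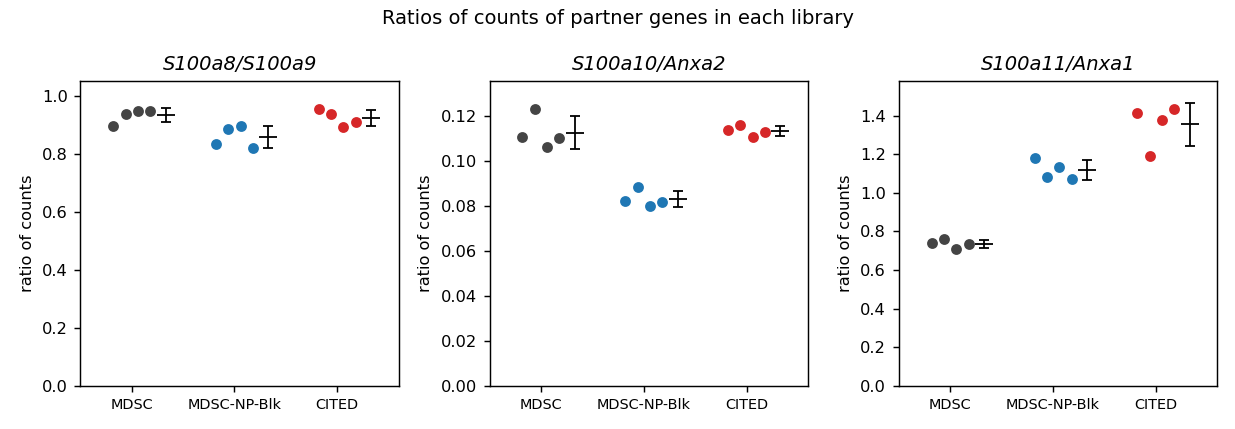
Ratio of counts (y axis from 0) of S100a8 to S100a9, S100a10 to Anxa2 and S100a11 to Anxa1 in each of 12 libraries, by group, with mean and SD (n = 4) beside the points. The S100a10 to Anxa2 ratio is lowest in MDSC-NP-Blk, and the S100a11 to Anxa1 ratio is higher in each nanoparticle group than in MDSC.

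Receptors of these proteins were mostly higher in the cells that carried nanoparticles. Of 13 listed receptor and co-receptor genes, all tested, 8 rose and none fell in CITED against MDSC, 10 rose and 2 fell in MDSC-NP-Blk against MDSC, and 6 rose and 2 fell in CITED against MDSC-NP-Blk. With the length correction 8 rose and 2 fell, 9 rose and 2 fell, and 6 rose and 2 fell, since in CITED against MDSC Bsg and Cd69 then passed at -0.16 and -0.32 (adjusted p = 0.0248 and 0.0288). With library totals alone Cd36 also passed there at -0.42 (adjusted p = 1.12e-05). The share of all symbols was 22.2% in each direction for the first comparison. It was 19.9% higher and 18.6% lower for the second, and 10.5% higher and 11.4% lower for the third. These shares include symbols with low counts, whereas 11 of the 13 genes had a mean normalized count above 50. Of the 10556 symbols above that level, 3761 rose and 3409 fell in the first comparison. In the second 3393 rose and 2982 fell, and in the third 1788 rose and 1899 fell. Of the TLR4 complex that binds calprotectin, Cd14 rose most, with 7287 ± 284 normalized counts in MDSC, 44364 ± 2613 in MDSC-NP-Blk, with 57027 ± 1020 in CITED (log2 fold change against MDSC 2.61 and 2.97). Ly96, which encodes MD-2, rose by 1.07 in CITED (adjusted p = 3.68e-06), and Tlr4 by 0.51 in CITED (adjusted p = 9.73e-07) and 0.20 in MDSC-NP-Blk (adjusted p = 0.0357). The Tlr4 value in MDSC-NP-Blk was -0.060 with library totals alone and did not pass with DESeq2 (adjusted p = 0.0733), filterByExpr (0.0592) or the 8 libraries compared (0.104), nor without MDSC replicates 1, 3 or 4 or MDSC-NP-Blk replicates 2 or 3 (0.10 and adjusted p = 0.251 without the last). The formyl peptide receptors Fpr1 and Fpr2 rose by 1.16 and 1.15 in CITED against MDSC and by 0.50 and 0.48 against MDSC-NP-Blk. Mcam, a receptor described for calprotectin, rose by 1.47 in CITED and 1.26 in MDSC-NP-Blk.

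Some receptors followed another course. Cd36, a scavenger receptor that takes up calprotectin-bound lipid, fell by 0.94 in MDSC-NP-Blk against MDSC (adjusted p = 1.86e-12) and was 0.80 higher in CITED than in MDSC-NP-Blk (adjusted p = 3.71e-10). Bsg, which encodes basigin, a receptor of S100A9, and the activation marker Cd69 were lower in CITED than in MDSC-NP-Blk (-0.37 and -0.45, adjusted p = 1.28e-04 and 0.00446). The MDSC-NP-Blk libraries were uneven for both genes. Bsg held 11671 and 12602 normalized counts in replicates 1 and 4, but 9184 and 9082 in replicates 2 and 3. In CITED it ran from 7804 to 8899. Cd69 ran from 268 to 395 in MDSC-NP-Blk and overlapped CITED at 227 to 270. Ager, which encodes RAGE, had a mean of only 18.9 normalized counts.

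Among 16 tested of 17 partner genes, 8 rose and 3 fell in CITED against MDSC, 7 rose and 5 fell in MDSC-NP-Blk against MDSC, and 4 rose with the other 12 not passing in CITED against MDSC-NP-Blk. With the length correction these counts were 8 and 2, 7 and 5, and 5 and 0. Without it, 22.2% of all symbols passed in each direction in the first comparison. In the second 19.9% were higher and 18.6% lower, and in the third 10.5% and 11.4%. These shares include symbols with low counts, whereas 13 of the 16 partner genes had a mean normalized count above 50. Plaur, the urokinase receptor of the plasminogen system that S100A10 also serves, rose by 1.44 in CITED and by 0.76 in MDSC-NP-Blk relative to MDSC, and by 0.68 between them. Plau, which encodes urokinase, fell by 0.34 in MDSC-NP-Blk against MDSC (adjusted p = 4.04e-06) and was 0.44 higher in CITED than in MDSC-NP-Blk (adjusted p = 1.54e-07). Plgrkt, the plasminogen receptor, was 0.30 higher in CITED than in MDSC-NP-Blk (adjusted p = 9.51e-04). S100a10, Plau and Plgrkt each gave higher values in CITED than in MDSC-NP-Blk, at 0.33, 0.44 and 0.30, while Anxa2 gave -0.12 without passing. Other partners had lower means in both nanoparticle groups than in MDSC. In MDSC, MDSC-NP-Blk and CITED, Ahnak stood at 4739, 3120 and 3115 normalized counts, Pla2g4a at 1265, 890 and 894, and Cacybp at 1476, 1142 and 1113. These means are without the length correction. Ahnak libraries of MDSC (3398 to 5392) overlapped those of CITED (2794 to 3593).

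Other members of the gene families were fewer. Of 11 other S100 genes, 7 were tested and only S100a1 and S100a13 exceeded a mean of 50 normalized counts, and both were higher than in MDSC at 0.62 and 0.41 in CITED and at 0.39 and 0.40 in MDSC-NP-Blk. With library totals alone S100a13 gave 0.13 in each contrast and did not pass. The S100a1 value in MDSC-NP-Blk was 0.12 with the length correction (adjusted p = 0.258). None of the 7 passed by edgeR in CITED against MDSC-NP-Blk, 2 had an unadjusted p below 0.05, and DESeq2 passed 1. S100a1, at 0.23 (adjusted p = 0.0724), did pass by edgeR with no filter on low counts (adjusted p = 0.0499) and with the length correction (0.24, adjusted p = 0.0221). With filterByExpr 1 of the list passed by edgeR, and it was not S100a1. Of 9 other annexins, 7 were tested, and 5 rose and 1 fell in CITED against MDSC, 4 rose and 1 fell in MDSC-NP-Blk against MDSC, and 3 rose and 1 fell in CITED against MDSC-NP-Blk. With the length correction these counts were 4 and 1, 4 and 1, and 3 and 2. Without it, the shares of all symbols higher and lower were 22.2% and 22.2%, 19.9% and 18.6%, and 10.5% and 11.4%. These shares include symbols with low counts, whereas 6 of the 7 annexins had a mean normalized count above 50. Anxa5 and Anxa7 rose by 0.66 and 0.74 in CITED and by 0.42 and 0.45 in MDSC-NP-Blk. Anxa6 and Anxa11 rose by 0.21 and 0.25 in CITED and by 0.45 and 0.37 in MDSC-NP-Blk, though with library totals alone the CITED values were -0.066 and -0.020. Anxa4 was lowest in MDSC-NP-Blk, at 0.18 in CITED (-0.10 with library totals alone, and 0.063 with the length correction, adjusted p = 0.227) and -0.25 in MDSC-NP-Blk against MDSC, and 0.43 in CITED against MDSC-NP-Blk (adjusted p = 5.32e-09). The annexin that fell in CITED was Anxa8, which had a mean of 2.82 normalized counts.

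Of 11 transcription factor genes listed as possible regulators of S100a8 and S100a9, 8 rose and 3 fell in CITED against MDSC. In MDSC-NP-Blk against MDSC 10 rose and 1 fell, and in CITED against MDSC-NP-Blk 4 rose and 3 fell. The length correction changed only the counts in MDSC-NP-Blk against MDSC, to 9 and 1. All 11 genes had a mean normalized count above 50. Of the 10556 symbols above that level, 3761 rose and 3409 fell in CITED against MDSC. These numbers were 3393 and 2982 in MDSC-NP-Blk against MDSC, and 1788 and 1899 in CITED against MDSC-NP-Blk. Cebpb rose by 1.51 in CITED and 1.01 in MDSC-NP-Blk, and Irf7 by 1.38 and 0.74. Gfi1, a repressor active in granulocyte differentiation, fell by 2.12 and 0.87, and by 1.25 between CITED and MDSC-NP-Blk. Cebpa and Cebpe, activators of granule genes, were highest in MDSC-NP-Blk. There they were 0.22 and 0.26 higher than in MDSC, though -0.047 for Cebpa with library totals alone and 0.044 for Cebpe with the length correction (adjusted p = 0.555). In CITED they were -0.41 and -0.61 from MDSC-NP-Blk (adjusted p = 3.45e-07 and 3.14e-10). Cebpb, Irf7, Irf8 and Hif1a went the other way between these groups. Their means were 19120, 750, 2091 and 15100 normalized counts in CITED, against 13540, 485, 1776 and 11360 in MDSC-NP-Blk. The part of these factors in the calprotectin result was not tested.

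The other cell type markers were summed in the same way. Monocytic markers ran from 100667 to 105155 normalized counts in MDSC, between 158284 and 172313 in MDSC-NP-Blk, and between 169751 and 173944 in CITED, and mast cell and basophil markers from 10162 to 11038, 11534 to 12713 and 6014 to 6670, with Cma1 at 0 in both nanoparticle groups. The monocytic list includes Cd14, and 3 of its 8 markers rose and 4 fell in CITED against MDSC (22.2% of all symbols in each direction). Lymphocyte markers were lower in CITED, at 60.9 to 78.8 against 119 to 179 in MDSC and 87.6 to 150 in MDSC-NP-Blk, with Ncr1 at 0 throughout. Dendritic cell markers lay between 188 and 307, with Siglech at 0 in CITED, and erythroid markers between 79.9 and 139. The 10 CNS markers summed to 3099 to 4216, carried by Mbp and Tmem119. The part of these cells in the 9 genes' values was not tested.

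By likeness over 12 libraries, measured as the root mean square difference of centred log2 normalized counts among 10556 symbols, S100a8 was closest to S100a9 (0.0682), then to Hadhb (0.0763) and Ppp6c (0.0772). S100a10 was closest to Ndufa5 (0.0726), Tmem160 (0.0788) and Lgals1 (0.0790). Anxa1 was closest to Uqcrc2 (0.0316), Cyb561a3 (0.0340) and Zbtb44 (0.0363), and Anxa3 to Gars1 (0.0355), Fgfr1op2 (0.0401) and Osbp (0.0407). Anxa2 was not among the 3 symbols most like S100a10, nor was S100a11 among those most like Anxa1.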

How the data were processed

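RNA-seq libraries of cultured MDSCs (poly(A) selected, paired-end) were quantified by the study with Salmon 1.4.0 against GENCODE transcripts of GRCm39 with decoys and summed to genes with tximport in R 4.3.2, as the methods and the submitters' processing notes give it. The deposited values are whole-number counts per gene symbol, and Salmon's estimates are therefore rounded to whole numbers. The row without a symbol was left out and held 0% of counts. Symbols with at least 2 counts over 12 libraries were kept. Counts were scaled by TMM and fitted with edgeR 4.0.16 in R 4.3.3 (quasi-likelihood test, group only, all 12 libraries), with Benjamini-Hochberg adjustment over all symbols, and genes were called when the adjusted p was under 0.05 and the log2 difference was 1 or more in either direction. Normalized counts are counts over the TMM-scaled library size times the mean such size. The length correction fitted, in each library, a loess curve (span 0.5) of centred log2 expression on the canonical transcript length of GENCODE M39, used as offsets. Ratios of partner genes were tested by exact two-sided permutation, with 70 arrangements. Replicates of a group differed by more than sampling noise (chi-square per degree of freedom of 4.81 to 24.2), so no library was counted as a copy. In MDSC-NP-Blk, replicates 1 and 4 (6.01) and replicates 2 and 3 (6.15) were nearer each other than libraries across these pairs (17.6 to 24.2). The correlation with transcript length was -0.422 and -0.243 in replicates 1 and 4, and -0.0471 and 0.0921 in replicates 2 and 3. Whether these 4 libraries are evenly independent was not tested. P-values measure the spread between libraries labelled as biological replicates, and whether these came from separate animals is not stated in the sources used here.

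The 9 genes and all lists were chosen with earlier results of these data known. Besides the 9, the rule allowed the text to name any list gene that was called in at least 1 comparison with a mean normalized count above 50, the cell type markers, and the 3 symbols most like S100a8, S100a10, Anxa1 and Anxa3. S100a1, S100a13, Tlr4, Cd36, Bsg, Cd69, Ager, Plau, Plgrkt, Ahnak, Pla2g4a, Cacybp, Anxa4 to Anxa8, Anxa11, Cebpa and Cebpe fall outside it and were named after their values were seen. Which of the allowed markers are named was also chosen then. Scripts were tested on simulated counts. Promoters were matched by symbol for 7 of 9 genes. Alternatives were DESeq2 1.42.0, other scalings and filters, only the 8 libraries compared, a replicate block, the length correction and each library left out. Scaling by library totals alone and the shortest coding transcript of S100a10 and S100a11 were added after seeing the data.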

Additional observations from a re-analysis of the deposited data

Results flagged for a closer look

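Among 36 groups of 4 libraries examined (9 genes and 3 ratios in 3 groups), 2 held a library that stood apart from the other 3 by Dixon's criterion, where chance alone flags about 1 in 20. Both were CITED replicate 1: S100a8 stood at 297480 normalized counts there and at 245807 to 254019 in the other CITED libraries, and S100a10 at 3220 and at 2810 to 2880. Without that library S100a8 still passed in CITED against MDSC-NP-Blk, and the S100a10 difference from MDSC was 0.17 (edgeR adjusted p = 0.0571). The cause was not tested.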

How the results depend on the processing

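DESeq2, DESeq2 size factors, upper quartile factors, TMM factors computed without the 9 genes, no filter and filterByExpr, and fits of only the 8 libraries compared kept the direction of every difference of the 9 genes that had passed, and ended 1 of these, Anxa1 in CITED against MDSC-NP-Blk, with upper quartile factors (-0.11, adjusted p = 0.0513) and with only the 8 libraries compared (-0.12, adjusted p = 0.0787). The length correction left 0 of the 9 genes called in CITED against MDSC, also with the shortest coding transcripts of S100a10 and S100a11, as did scaling by library totals (0). It turned the CITED against MDSC values of S100a9 to -0.26, Anxa1 to -0.054, Anxa2 to -0.017 and Bsg to -0.16. With the shortest coding transcripts these were -0.26, -0.054, -0.017 and -0.16, and S100a10 turned to -0.041. With library totals alone, the CITED against MDSC values turned to -0.27 for S100a9, -0.058 for S100a10, -0.14 for Anxa1, -0.067 for Anxa2, -0.10 for Anxa4, -0.066 for Anxa6, -0.020 for Anxa11, -0.26 for Bsg and -0.18 for Plau, and the MDSC-NP-Blk against MDSC values to -0.011 for Anxa1, -0.060 for Tlr4 and -0.047 for Cebpa. The median of all genes shifted by -0.27 and -0.26 there, by construction of the scaling. The length-corrected ratios were 0.27 for S100a10 to Anxa2 in CITED against MDSC, where it passed, and 0.29 for S100a11 to Anxa1 in CITED against MDSC-NP-Blk, where it did not. With the shortest coding transcripts no ratio passed, since fewer ratios reached the smallest p: S100a8 to S100a9 gave -0.12 (MDSC-NP-Blk against MDSC), S100a10 to Anxa2 gave -0.51 (MDSC-NP-Blk against MDSC), or 0.49 for CITED against MDSC-NP-Blk, and S100a11 to Anxa1 gave 0.80 and 0.45 against MDSC and 0.35 in CITED against MDSC-NP-Blk (adjusted p = 0.0514 to 0.0735). Leaving out 1 library, 1 to 2 of the 9 genes were called in CITED against MDSC, and 3 to 7 passed the adjusted p in CITED against MDSC-NP-Blk.

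Equal replicate numbers gave no clear pairing of the samples. Same-numbered libraries had a mean correlation of deviations of 0.0105 (CITED and MDSC), -0.0168 (MDSC-NP-Blk and MDSC) and 0.0510 (CITED and MDSC-NP-Blk). Libraries with different numbers had means of -0.00356, 0.00590 and -0.0166 in the same order. In CITED and MDSC-NP-Blk, same-numbered values ran from -0.0579 to 0.140 and the others from -0.162 to 0.157. Whether same-numbered libraries share a preparation is not stated in the sources used here. With the replicate number as a block, 2 of the 9 genes were called and 7 passed the adjusted p in CITED against MDSC, 0 and 8 did in the contrast of the blank-particle group with MDSC, and 0 and 7 did between the particle groups, where Anxa2 passed (-0.12, adjusted p = 0.0297) as did S100a1 (0.23, adjusted p = 0.0196).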
